A study of Mus musculus with 4 samples.

Results

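Interferon-inducible gene clusters are tandem arrays of related genes, many of whose products restrict viruses and bacteria. Members were the protein-coding genes whose symbol marks them as guanylate-binding proteins (Gbp), Ifi200 genes (Ifi followed by a number in the 200s), Ifit, Ifitm, Slfn (Schlafen) or Oas genes. The symbol rule found 51 members among 21900 protein-coding genes of the RefSeq annotation GRCm38.p6, the assembly that mm10 names. It used no measured value, and it does not show that each member is induced by interferon or acts against microbes. There were 10 Gbp, 11 Ifi200, 6 Ifit, 7 Ifitm, 8 Slfn and 9 Oas genes, with bodies from 1.08 to 70.1 kb long (median 17.3 kb). Members of a family on the same chromosome were joined into a cluster where the gap between them was at most 1 Mb. That gave 7 clusters and the lone genes Ifitm7 and Ifitm10.

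Interferons bind cell-surface receptors, and the receptors' kinases activate STAT proteins. Type I interferon acts mainly through a complex of STAT proteins and IRF9 that binds the interferon-stimulated response element (ISRE), and interferon gamma through STAT dimers that bind the gamma-activated sequence (GAS). Gbp proteins are large GTPases that attack the vacuoles of intracellular microbes, and Ifi200 proteins bind DNA and some sense it in the nucleus or cytosol. Ifit proteins bind foreign RNA, some Ifitm proteins block virus entry at membranes, and Oas enzymes make a nucleotide messenger that leads to RNA breakdown in infected cells. Schlafen proteins act on RNA and on the growth of lymphocytes. Trimethylation of lysine 9 on histone H3 (H3K9me3) marks heterochromatin.

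H3K9me3 was mapped by native ChIP-seq, which uses nuclease-cut chromatin without cross-linking, in wild-type CD8+ T cells of C57BL/6 mice. The day 0 library came from naive cells. The day 3 library came from cells cultured with anti-CD3 and anti-CD28 antibodies plus interleukin-2. There was 1 ChIP library per day, the labels do not say whether mice were pooled, and the 2 input libraries were not analysed here. No test between days was therefore possible, and every difference below is one between 2 libraries with no replicate check.

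The authors deposited lists of significant islands, which are runs of enriched windows merged into regions, each with a whole number taken to be its unscaled ChIP read count. Day 0 had 19989 islands with 3402787 reads and day 3 had 47553 islands with 10423178 reads. The median density, not scaled for depth, was 34.1 reads per kb in the naive list and 52.9 in the cultured list, whose least dense island also had 34.1. A missing island says only that no region there passed the authors' threshold. How reads that map to several near-identical copies were treated was not given in the sources used here, and tandem families hold such copies, so assignment among them is uncertain. None of the 6 CD8 T cell identity genes found in the table (Cd8a, Cd8b1, Cd3e, Cd3d, Cd3g and Lck) had an island on either day, which does not measure their expression.

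The promoters of 2 members, Gbp2b and Oas1f, lay inside a day 0 island, and no member's listed promoter lay in a day 3 island. RefSeq promoter windows of GRCm38.p6, which run from 250 bases before a gene's start to 50 after it, were listed for 42 of the 51 members, 50 windows in all. Day 0 islands reached 2 of these 42 genes (4.76%) and 2.05% of the 17492 protein-coding genes with a window. Day 3 islands reached none of the members' windows and 3.29% of genes. The 250 bases before the start are printed for both covered promoters and for Gbp2 and Oas1a. Gbp2 and Oas1a lie in the arrays of Gbp2b and Oas1f and had no island on either day. Gbp2 is next to Gbp2b, while Oas1h and Oas1g lie between Oas1f and Oas1a. The bases of Ifi207, whose start lay nearest to a day 3 island within a member's body, are printed as well. They are written 5′ to 3′ on the gene's strand, with matches to the ISRE core or GAS in capitals.
Gbp2b (chromosome 3, 142594597 to 142594846, plus strand, in a day 0 island): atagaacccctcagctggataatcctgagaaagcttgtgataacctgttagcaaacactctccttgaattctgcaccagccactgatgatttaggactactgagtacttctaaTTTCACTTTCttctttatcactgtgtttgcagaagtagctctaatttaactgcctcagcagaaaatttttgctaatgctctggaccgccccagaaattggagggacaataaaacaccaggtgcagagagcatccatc
Gbp2 (chromosome 3, 142620413 to 142620662, plus strand, no island): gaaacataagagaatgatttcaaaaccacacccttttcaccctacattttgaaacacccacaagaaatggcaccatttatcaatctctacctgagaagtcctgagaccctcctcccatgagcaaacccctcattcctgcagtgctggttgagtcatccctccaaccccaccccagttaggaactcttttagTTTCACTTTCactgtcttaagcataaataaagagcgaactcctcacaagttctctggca
Oas1f (chromosome 5, 120847117 to 120847366, plus strand, in a day 0 island): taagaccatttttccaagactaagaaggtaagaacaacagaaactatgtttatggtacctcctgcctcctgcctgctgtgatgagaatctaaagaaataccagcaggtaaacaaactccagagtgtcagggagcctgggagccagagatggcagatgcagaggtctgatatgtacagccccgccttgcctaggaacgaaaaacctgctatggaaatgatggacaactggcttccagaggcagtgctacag
Oas1a (chromosome 5, 120907526 to 120907775, minus strand, no island): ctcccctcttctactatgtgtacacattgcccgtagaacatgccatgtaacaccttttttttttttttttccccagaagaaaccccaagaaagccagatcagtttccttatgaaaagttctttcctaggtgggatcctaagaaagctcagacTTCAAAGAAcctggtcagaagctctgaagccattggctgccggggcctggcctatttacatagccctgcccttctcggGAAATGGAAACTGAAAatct
Ifi207 (chromosome 1, 173741810 to 173742059, minus strand, no island over the window): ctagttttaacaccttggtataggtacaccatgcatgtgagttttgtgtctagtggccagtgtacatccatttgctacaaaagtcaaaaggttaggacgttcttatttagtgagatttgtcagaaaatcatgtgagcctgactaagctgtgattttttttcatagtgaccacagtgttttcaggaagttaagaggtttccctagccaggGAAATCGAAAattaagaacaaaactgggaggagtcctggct

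The ISRE core was searched as GAAA, any 2 bases and GAAA, and GAS as TTCNNNGAA, on both strands, in the 250 bases before each listed start. At least 1 ISRE core match was present in 26 of the 42 members (61.9%), against 3.48% of all protein-coding genes with a window. GAS matches were present in 6 members (14.3%), against 7.65%. The ISRE core was found in 5 of 5 Gbp genes with a window, 8 of 10 Ifi200, 5 of 6 Ifit, 4 of 6 Oas, 3 of 8 Slfn and 1 of 7 Ifitm genes. Windows of Ifit1 and Ifit1bl2 overlap on opposite strands, and the matches counted for these genes are the same sites. Some other windows of an array are nearly the same in sequence, as in Ifit3 and Ifit3b or in Ifi206, Ifi208 and Ifi213. The genes with a match are therefore not independent of each other. No ISRE match overlapped a GAS match in a member, while ISRE matches overlapped each other in Gbp3, Oas1a, Oas1c and Oas1g. The covered Gbp2b window held 1 ISRE core match (TTTCACTTTC, 137 bases before the start), and the uncovered Gbp2 window held the same letters 59 bases before its start. The covered Oas1f window held no match to either motif, and neither did that of Oas1h, the adjacent member, which had no island. Ifi207 held GAAATCGAAA 41 bases before its start. A match describes the letters and does not show binding.

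Of the 51 members, 6 carried an island in naive cells (11.8%), 7 in cultured cells (13.7%) and none in both. The background over all protein-coding genes was 22.7% on day 0, 27.1% on day 3 and 15.9% on both. Islands are met more often in long genes. Over the 16540 protein-coding genes within the members' range of lengths, the naive list reached 15%, the cultured list 19.5% and both lists 8.15%. Over the 5018 genes between the members' length quartiles (9.92 and 23.8 kb), these shares were 11.5%, 15.7% and 4.3%. Of the 25 members between these quartiles, 2 had an island on day 0 (8%), 5 on day 3 (20%) and 0 on both. The members' count on each day was thus below the share of all genes and of genes in their whole length range. Between the length quartiles the members' share was lower than that of genes on day 0 and higher on day 3, from few members.

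The 6 members with an island on day 0 alone were Gbp5, Gbp2b, Ifitm2, Ifitm10, Slfn4 and Oas1f. The 7 with one on day 3 alone were Gbp3, Gbp8, Ifi207, Ifi204, Ifi202b, Ifit1bl1 and Slfn14. Over all protein-coding genes, 6.74% were listed on day 0 alone and 11.2% on day 3 alone. Among all protein-coding genes with an island on either day, 47% had one on both days, and 31% did among genes in the members' length range and 18.8% between the length quartiles. The count on both days was 0 of 13 for the members. It stayed at 0 of 51 with 5 kb added on each side of the bodies, where the both-day share over all genes was 18.9%. Equal list lengths and the 2 density limits only remove islands, so the count of 0 could not rise there. The both-day shares over all genes were then 12%, 9.18% and 11%. None of these shares was matched for gene length. With the cultured list reduced to its 19989 most-read islands, the day 3 count was 3 (Ifi204, Ifi202b and Ifit1bl1), and the share over all genes fell as well, to 17.9%.

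**Figure D1:**
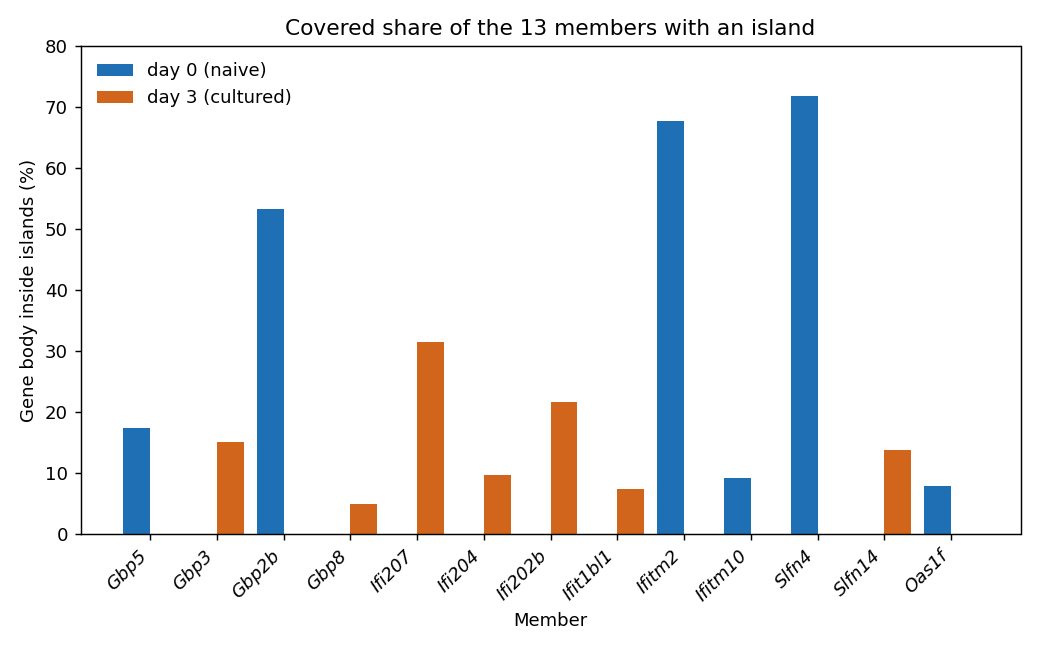
Share of the gene body inside islands (vertical axis, percent) for the 13 members with an island, with 1 bar per library (blue, day 0; orange, day 3). Each member has a bar on only 1 of the days, and the highest are Slfn4 (71.8%), Ifitm2 (67.8%) and Gbp2b (53.3%), all on day 0. The covered part of Ifitm2 lies upstream of its listed start.

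Gbp2b (also called Gbp1; chromosome 3, 142594816 to 142619179) was the most heavily covered Gbp gene. In naive cells 3 islands took up 13.0 kb (53.3%) of its body, and on day 3 it had none, with the nearest 29.0 kb away. The first of these islands (142593801 to 142599400) spanned the start of the gene and held 178 reads (exact 95% Poisson interval 153 to 206), or 31.8 reads per kb. The other two lay 13.4 and 18.8 kb past the start and held 132 and 174 reads, or 36.7 and 36.2 reads per kb. The island over the start was therefore less dense than any day 3 island, and it was lost when day 0 islands were held to the lowest day 3 density, so that the difference (day 3 less day 0) was then -8.40 kb.

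Gbp5, whose product promotes inflammasome assembly, had 1 day 0 island of 4.40 kb (17.3% of its body) 7.07 kb past its start. It held 169 reads (interval 144 to 196), or 38.4 per kb, and was denser than 85.2% of the day 0 list. Gbp3, between them on the chromosome, had no day 0 island and a 2 kb day 3 island (15.2% of its body) with 120 reads (interval 99.5 to 143), or 60 per kb. Neighbours in the same array thus differed in the day on which they were listed. Gbp7 and Gbp2, also in the array, had no island on either day, although Gbp2 lay only 2.26 kb from a day 0 island.

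The chromosome 3 Gbp cluster (142496934 to 142638008, 5 members) had 24.2 kb or 17.2% of its 141 kb covered on day 0, in 5 islands, against 4.77% of the whole chromosome. On day 3, 2 kb or 1.42% was covered, against 10.02% of the chromosome. Of the day 0 islands, 1 lay between genes (142585001 to 142590800, 184 reads), in the space that separates Gbp3 from Gbp2b. No base of the cluster was covered on both days, and 3 kb was with 100 kb added on each side. The cluster was covered more on day 0 in each selection of islands tried, with a difference (day 3 less day 0) between -17.2 and -7.66 percentage points.

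The other Gbp cluster, on chromosome 5 (105012513 to 105295871), holds Gbp8, Gbp9, Gbp4, Gbp10 and Gbp6. It had no day 0 island, and its members lay 215 to 458 kb from the nearest one. On day 3 a single 2 kb island in Gbp8 (122 reads, interval 101 to 146, 61 per kb) covered 4.87% of that gene and 0.706% of the cluster, against 6.60% of the chromosome. The effector GTPase genes Gbp4, Gbp6, Gbp9 and Gbp10 had none, at 37.3 to 93.7 kb from the nearest day 3 island.

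**Figure D2:**
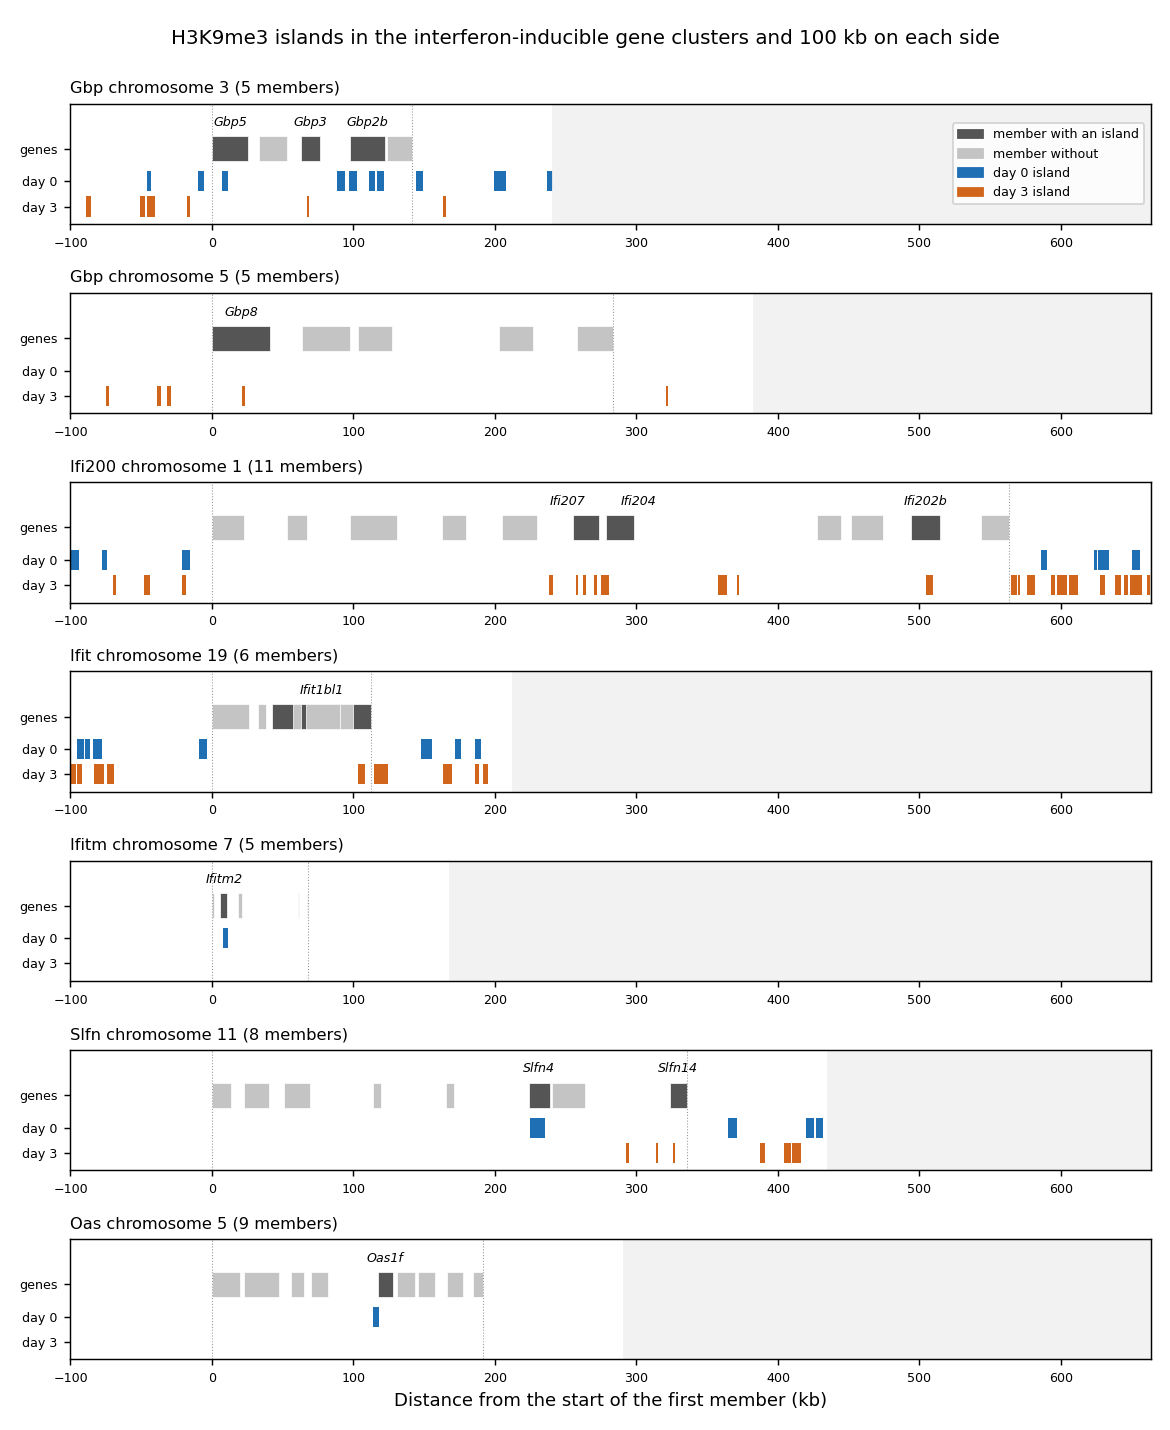
Maps of the 7 clusters with 100 kb on each side, drawn to 1 scale (horizontal axis, kb from the start of the first member); grey boxes are members (dark where an island lies in the body), blue bars day 0 islands and orange bars day 3 islands, dotted lines the cluster ends, and shaded areas lie outside the region shown. The Gbp array of chromosome 3 holds 5 day 0 islands and 1 day 3 island, while the Ifi200 array holds 8 islands, all of day 3.

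The Ifi200 cluster on chromosome 1 (173468485 to 174031755, 11 members over 563 kb) had no day 0 island and 8 day 3 islands. They covered 26.8 kb or 4.76% of it, against 9.36% of the chromosome, while on day 0 4.55% of the chromosome was covered. The DNA sensor gene Aim2 (173349547 to 173466040), which is not a member, ends just before the cluster and had islands on both days. It had 4 day 0 islands over 18.2 kb and 3 day 3 islands over 9.40 kb of its body. Ifi207 had 3 short day 3 islands over 5.80 kb (31.5% of its body) with 124, 113 and 129 reads. Their densities were 68.9, 62.8 and 58.6 reads per kb, and the first was denser than 96.5% of the day 3 list. The nearest to the gene's start began 1.01 kb past it. All 3 were short (1.80 to 2.20 kb against a list median of 3.60 kb), and none of them was among the 19989 day 3 islands with the highest read counts.

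Ifi204, which encodes a nuclear DNA sensor, shared 1.91 kb (9.65% of its body) with a 6 kb day 3 island that lay mostly in the space next to Ifi207. This island held 347 reads (interval 311 to 386), or 57.8 per kb. Ifi202b, whose product restrains the DNA sensor Aim2, had a 4.40 kb day 3 island (21.7% of its body) that began 5.04 kb past its start and held 258 reads (interval 227 to 291). The other 3 day 3 islands lay between annotated genes, 2.60, 6.40 and 1.60 kb long with 139, 323 and 113 reads. Ifi206, Ifi214, Ifi213, Ifi209, Ifi208, Ifi211, Ifi203 and Ifi205 had no island on either day. Of these, Ifi205 lay closest to an island of either day, at 1.25 kb from one of day 3. Ifi208 lay farthest from a day 0 island, at 221 kb, and Ifi213 farthest from a day 3 island, at 108 kb.

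Of the Ifit genes, whose products bind viral RNA, only Ifit1bl1 had an island. It was a 5.20 kb day 3 island (chromosome 19, 34653601 to 34658800) with 235 reads (interval 206 to 267). It covered 7.42% of the annotated body and lay 51.6 kb upstream of the nearest listed start, since the 70.1 kb body of this gene spans Ifit3b, Ifit1bl2 and Ifit1. Its 45.2 reads per kb exceeded only 6.92% of the day 3 list, and with islands held to the median density of their list it was lost. Ifit1, Ifit2, Ifit3, Ifit3b and Ifit1bl2 had no island on either day. Ifit2 lay 3.75 kb from a day 0 island and Ifit1 3.59 kb from a day 3 island.

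Ifitm2, which encodes a membrane protein that blocks virus entry, had 3.29 kb or 67.8% of its 4.85 kb body in a day 0 island (chromosome 7, 140956401 to 140960600). The island held 172 reads (interval 147 to 200) and, at 41.0 reads per kb, was denser than 93.6% of the day 0 list. It lay 0.44 kb upstream of the listed start of this minus-strand gene. All of the covered part of the annotated body was therefore upstream of that start. On day 3 the nearest island was 159 kb away. Ifitm10, which lies apart on the same chromosome, had a 4.40 kb day 0 island (9.18% of its body) with 161 reads, 34.7 kb past its nearest listed start. Ifitm1, Ifitm3, Ifitm5 and Ifitm6 had none on either day, nor had Ifitm7 on chromosome 16, which lay 1.13 kb from a day 3 island. The Ifitm cluster and 100 kb on each side of it held 1 island in all.

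Slfn4 had the highest covered share of any member, 10.8 kb or 71.8% of its body on day 0, in a single island (chromosome 11, 83175801 to 83186600). The island began 0.615 kb past the start and was longer than 98.8% of the day 0 list. It held 339 reads (interval 304 to 377), or 31.4 per kb, which is below every day 3 island, and it was lost under both density limits. The only member of this array with a day 3 island was Slfn14, which encodes an endoribonuclease. It had 1.60 kb (13.8% of its body) with 90 reads (interval 72.4 to 111), or 56.2 per kb. Slfn2, which maintains quiescence of T cells, had none, and the nearest islands lay 105 kb away on day 0 and 173 kb on day 3. Slfn1, Slfn3, Slfn5, Slfn8 and Slfn9 had none either. The cluster (82951349 to 83286726) was covered over 3.22% on day 0 and 1.67% on day 3, against 4.05% and 5.84% of the chromosome. Without Slfn4's island, as under the density limits, this order turned, to 1.67 percentage points more on day 3.

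The Oas array on chromosome 5 (120730333 to 120921648, 9 members) held a single island, on day 0. It ran from 120843801 to 120848200 with 152 reads (interval 129 to 178), or 34.5 per kb, and covered the promoter and first 0.834 kb of Oas1f (7.85% of its body). Oas2, Oas3, Oas1a, Oas1c, Oas1d, Oas1e, Oas1g and Oas1h had no island on either day. On day 3 the array was far from any island, with members at 684 to 852 kb, whereas on day 0 the members without an island lay 13.2 to 93.9 kb from one.

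**Figure D3:**
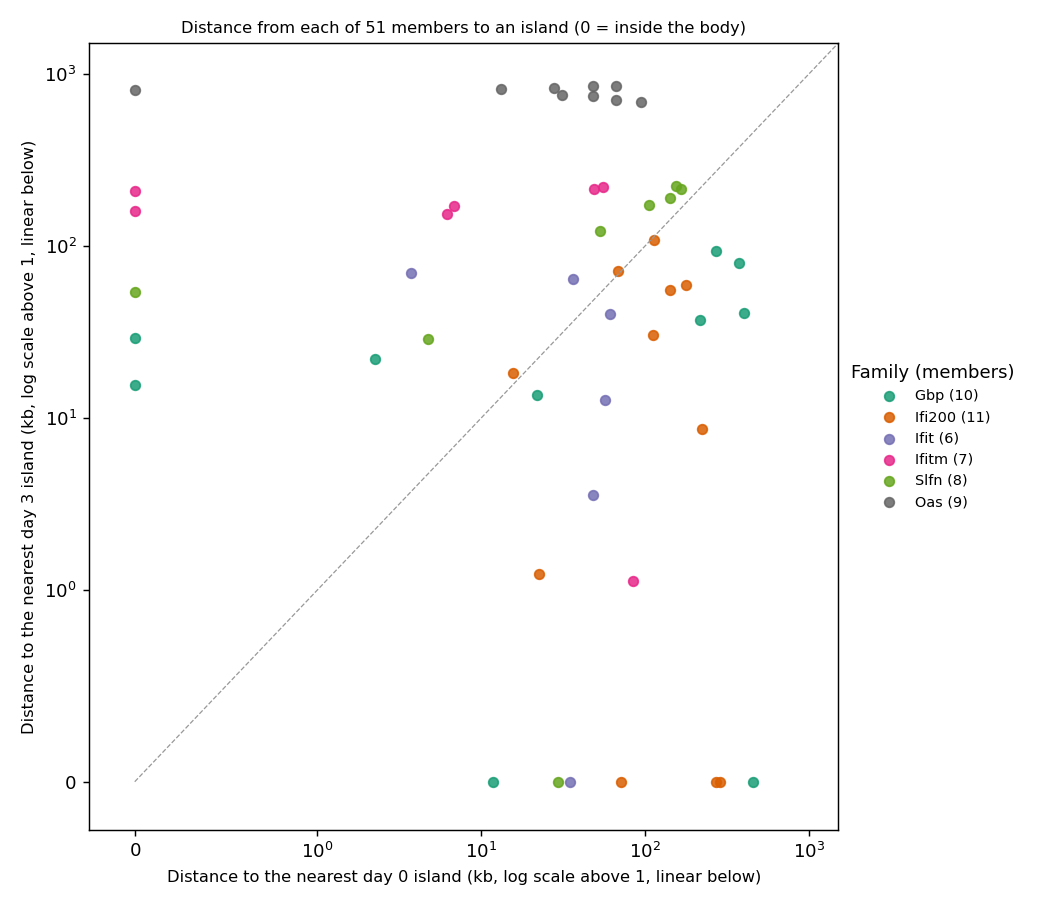
Distance from each of the 51 members to the nearest day 0 island (horizontal axis) and day 3 island (vertical axis), in kb on an axis that is logarithmic above 1 and linear below, coloured by family; 0 means an island in the body and the dashed line marks equal distances. The 9 Oas genes lie at 684 kb or more from a day 3 island, and no point lies at 0 on both axes.

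Of the 51 members, 22 lay farther from an island on day 0 and 29 on day 3. The 29 include all 9 Oas genes, which form 1 array, and the same split over all genes was not examined. The median distance, with covered members at 0, was 53.1 kb on day 0 and 64.6 kb on day 3. For the 25 members between their length quartiles it was 57.2 kb on day 0 and 55.1 kb on day 3, the opposite order. For all protein-coding genes between these quartiles it was 54.0 and 56.5 kb. Within 5 kb of an island were 9 members on day 0 and 10 on day 3, against 27.4% and 33.2% of all protein-coding genes. Ifi213, Slfn2, Slfn5, Slfn8 and Slfn9 lay over 100 kb from an island on both days, and were picked out after their distances were seen.

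The 9 clusters and lone genes spanned 1748 kb. Islands covered 48 kb or 2.75% of them on day 0 and 41.6 kb or 2.38% on day 3, with no base in common. With 100 kb added on each side, 178 kb was covered on day 0 and 196 kb on day 3, and 30 kb on both. The length common to both days over the genome was not examined. The autosomes were covered over 4.08% on day 0 and 8.07% on day 3. In the 100 kb on each side of each cluster or lone gene, the covered share was 7.21% on day 0 and 8.60% on day 3. The flanks of the Ifi200 cluster (17.7% and 29.6%) and of the Ifit cluster (18.1% and 21.3%) were well above the clusters themselves, where nothing was covered on day 0 and 4.76% and 4.62% on day 3. In the Gbp cluster of chromosome 3 the flanks were lower than the cluster on day 0 (12.2%) and higher on day 3 (8.7%). The flanks of the Ifitm cluster and of the Oas cluster had no island on either day. With as many day 3 as day 0 islands, 1.26% of the clusters was covered on day 3. Under the density limits the order of the days turned, with day 0 coverage at 1.48% under either. Day 3 coverage was 1.72% with the median limit and 2.38% with day 0 islands held to the lowest day 3 density. The limits cut day 0 at nearly the same density (34.06 and 34.11 reads per kb), so they are not 2 separate checks. The limit at the lowest day 3 density removed day 0 islands only, so it could move the order only towards day 3.

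Day 0 islands on members, 8 in all, held 31.4 to 41.0 reads per kb (median 36.4), and 6 of them were at or above the list median. Day 3 islands on members, 9 in all, held 45.2 to 68.9 reads per kb (median 58.6), and 8 were at or above the list median. The day 3 islands were short, with a median of 2 kb against 3.60 kb for the list, and the day 0 islands had a median of 4.40 kb against 4.80 kb. In all, 1477 reads lay in the day 0 and 1538 in the day 3 islands on members. Set against the quartiles of their list (31.9 and 36.7 reads per kb), 2 of the day 0 islands lay above the upper and 2 below the lower quartile. On day 3 (quartiles 49.0 and 57.5), 7 lay above the upper and 1 below the lower quartile. The 7 included all 3 islands of Ifi207, and densities were not compared at matched island lengths.

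**Figure D4:**
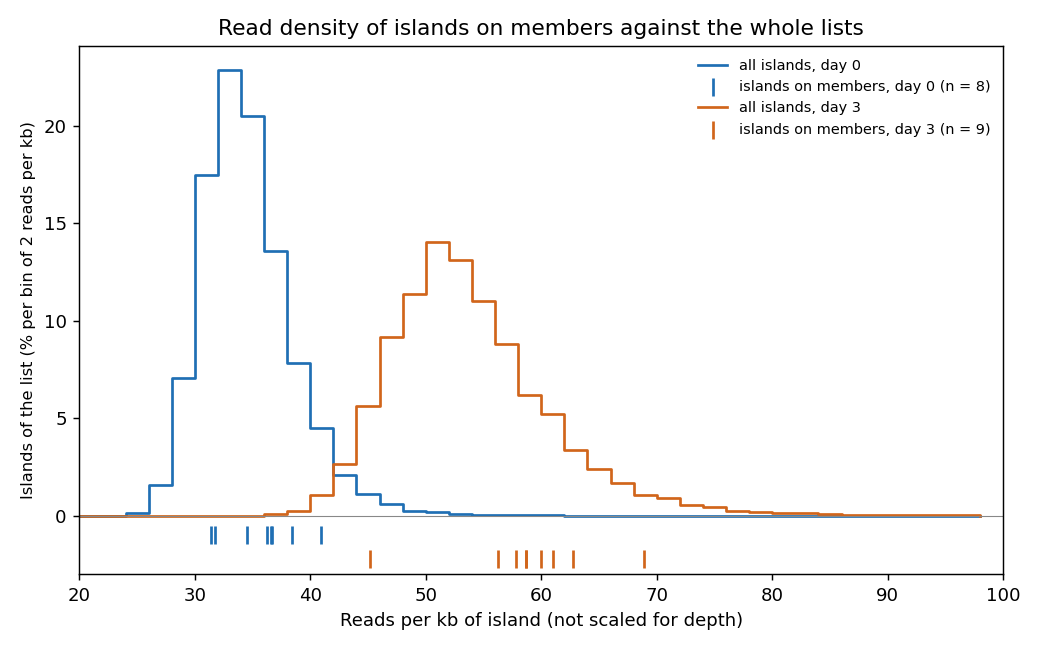
Read density (horizontal axis, reads per kb, not scaled for depth) of all islands of each list (steps, percent of islands per bin of 2 reads per kb) and of the islands on members (ticks below 0; blue, day 0, n = 8; orange, day 3, n = 9). The member islands span 31.4 to 41.0 on day 0 and 45.2 to 68.9 on day 3, where 7 of the 9 lie above the upper quartile of their list (57.5). Island lengths were not matched.

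Other genes of the interferon pathway, grouped by role, numbered 73 in the table, of which 15 were listed in naive cells, 13 in cultured cells and 9 at both times. The background over all protein-coding genes was 22.7%, 27.1% and 15.9%. Their median body length was 15.4 kb, against 17.3 kb for the members. Of the ligand genes, Ifnk (interferon kappa) had an island on day 3 alone, over 62.0% of its short body, and Ifng, Ifnb1, Ifne, Ifnl2 and Ifnl3 had none. None of the 6 receptor genes had one on either day. Among kinases and STATs, Jak1 (11 kb in naive and 5.40 kb in cultured cells) and Stat4 (10.6 and 20.6 kb) were covered at both times. Jak2 was covered on day 3 alone, over 29.6 kb or 48.3% of its body in 6 islands, and Stat3 on day 3 alone, over 3.80 kb.

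Among the interferon regulatory factors, Irf2 (6.20 kb) and Irf8 (4.40 kb) were covered on day 0 alone, and the other 7 had no island. The Irf8 island (33.2 reads per kb) was less dense than any day 3 island, and that of Irf2 (35.2) was not. Of the 12 sensors and adaptors, 5 were listed in naive cells and 2 in cultured cells. The RNA sensor gene Ifih1 was covered on both days, over 7 and 6.38 kb, as was the DNA sensor gene Aim2, over 18.2 and 9.40 kb. Tlr3 (7.20 kb), Cgas (5.60 kb) and Mavs (3.60 kb) were covered on day 0 alone. The densities there (29.9, 33.0 and 33.6 reads per kb) fell below the least dense day 3 island. Among the other induced effectors, 4 of 27 were listed in naive and 4 in cultured cells. Herc6 (5.20 and 17.4 kb), Eif2ak2 (2.40 and 4.60 kb) and Parp14 (4.20 and 3 kb) had one on both days. Adar (4.80 kb) had one on day 0 alone, at 31.9 reads per kb also below every day 3 island, and Cmpk2 (0.637 kb) on day 3 alone. Of the 7 negative regulators, Ptpn2 (5.40 and 14.4 kb) and Pias1 (3.40 and 11.8 kb) had one on both days. With day 0 islands held to the lowest day 3 density, the day 0 count of the pathway genes was 7, and the share of all protein-coding genes was then 14.4%.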

How the data were processed

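H3K9me3 was measured by native ChIP-seq in 2 ChIP libraries, 1 per day. The submitters' processing notes name Bowtie2, SICER 1.1 and mm10, with no role. The deposited lists give islands on a grid of 200 bp, each with an unnamed whole number, taken to be the island's ChIP read count, which the authors had not scaled for depth, length or input. The threshold, gap size and role of the input were not given in the sources used here. The sample labels give the same number of reads for both ChIP libraries. The total of mapped reads is not known, so reads per kb were not scaled.

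Islands were converted to 1-based coordinates. Coverage was computed with numpy 2.4.6 and tested on simulated data. A member counted as having an island with at least 1 bp of its body covered. Chromosome shares used the largest island or gene end as length. Read counts carry exact 95% Poisson intervals, which cover counting error only, since PCR reads without molecular identifiers are not independent molecules. All members with an island were named and the rest counted. Some pathway genes are not reported here. Members, lists and alternatives were chosen with earlier results of these data known.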

Additional observations from a re-analysis of the deposited data

How the results depend on the processing

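The count of members with an island on both days was 0 under every alternative tried for it. Only adding 5 kb on each side could have raised it, since the others remove islands or ask for more overlap. The share over all genes ran from 0.215% (at 50% of the body) to 18.9% (with 5 kb added). The day 0 count of 6 was 5 with islands of at least their list's median density or of at least the lowest day 3 density, where the share over all protein-coding genes fell from 22.7% to 14.5% and 14.4%. It was 4 when 10% of the body had to be covered (12.2% of all genes), 3 at 50% (0.817%) and 9 with 5 kb added on each side (27.4%). The day 3 count of 7 was 3 with equal list lengths (17.9% of all genes), 4 at 10% of the body (17.8%), 0 at 50% (2.26%) and 10 with 5 kb added (33.2%). Both density limits gave 7 pathway genes on day 0 instead of 15, beside the same 14.5% and 14.4% of all genes. At 10% of the body, the pathway counts were 8 on day 0, 8 on day 3 and 1 on both days (all genes 12.2%, 17.8% and 6.46%), and the median density limit gave 5 on both days (9.18%). The covered share of all clusters on day 0 was 1.48% under either density limit and 5.01% with 100 kb added on each side. On day 3 it was 1.26% with equal list lengths, 1.72% with the median density limit and 5.54% with 100 kb added. Day 3 thus exceeded day 0 under the density limits and with 100 kb added. The density limits cut day 0 at nearly the same density, and the one at the lowest day 3 density removed day 0 islands only. The Slfn cluster turned to 1.67 percentage points more on day 3 under either density limit, because its only day 0 island was then left out. Joining members at gaps of at most 250 kb gave the same 9 clusters and lone genes. No replicate could be left out, and no paired analysis was possible because there was 1 ChIP library per day. What a missing island can show is limited. The day 0 list held fewer and sparser islands, and the reads outside islands were not analysed here. The sample labels give the same number of reads for both ChIP libraries, and the totals of mapped reads are not known. Whether depth led to the sparser day 0 list was not tested.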

Other observations

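Several genes that are not members but lie within 100 kb of a cluster carried islands, among them Aim2 beside the Ifi200 cluster. They were named after their values were seen. Slc16a12, a monocarboxylate transporter gene next to the Ifit cluster, had 16 kb inside day 0 islands and 19.8 kb inside day 3 islands, while Ch25h, the interferon-inducible cholesterol hydroxylase gene on the other side, had 0.418 kb covered on day 3 alone. Ap2b1, an adaptor gene next to Slfn14, had 20.2 kb covered in naive and 17 kb in cultured cells. Kyat3, beside the Gbp cluster of chromosome 3, was covered over 8.18 kb on day 0 alone, and Abcg3, beside that of chromosome 5, over 6.81 kb on day 3 alone.

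The pseudogenes Gbp2-ps and Gbp11, just outside the 2 Gbp clusters, were covered over 2.40 and 1.80 kb on day 3 alone. Ifi203-ps, Oas1b (annotated as a transcribed pseudogene) and Slfn10-ps, which lie inside their clusters, had no island on either day, nor had Mndal, a protein-coding relative inside the Ifi200 cluster. Past the last Ifi200 gene the olfactory receptor genes Olfr430 (0.954 kb) and Olfr231 (0.924 kb) lay wholly in a day 3 island, and Olfr427 (0.949 kb) wholly in a day 0 island.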
